A study of Homo sapiens with 32 samples.

Results

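Members of the interferon regulatory factor (IRF) and signal transducer and activator of transcription (STAT) families were followed across 4 lines of THP-1 cells, a human monocytic leukemia cell line. The 9 members are STAT2, STAT3, IRF1, IRF2, IRF3, IRF5, IRF7, IRF8 and IRF9, chosen as the rows that carry these symbols among 60107 genes. All 9 were among the 12406 genes tested, a gene being tested where its normalized counts averaged 10 or more. All lines came from ACLY knockout THP-1 cells, which lack ATP-citrate lyase, the enzyme that makes acetyl-CoA from citrate. KO denotes the knockout cells. WT, HA and SA denote knockout cells that received wild-type ACLY, the catalytically inactive H760A mutant or the phosphorylation-deficient S455A mutant by lentiviral transduction. It is not stated whether the KO cells were transduced, and each genotype is a single line, so other differences between lines cannot be told apart from the genotype. Each line was left unstimulated or received lipopolysaccharide (LPS), a component of bacterial cell walls, for 3 h. The labels give 100 ng/ml LPS, while a passage of the methods gives 10 ng/ml. The 8 groups have 4 libraries each. The study describes its data in general as independent experiments but does not say from what the 4 libraries of a group were made, so p-values measure the spread between these libraries, which may in part be technical.

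STAT2 and IRF9 are subunits of ISGF3, the complex that binds interferon-stimulated response elements (ISRE) after type I or type III interferon signals through Janus kinases. IRF3 and IRF7 are activated by phosphorylation downstream of pattern recognition receptors and switch on interferon genes. IRF1 and IRF2 bind related elements, with IRF1 an inducible activator and IRF2 known mostly as its antagonist, while IRF5 serves Toll-like receptor signaling, IRF8 shapes the monocyte lineage and STAT3 answers IL-6 and IL-10. Much of the activity of IRF3, IRF5 and the STAT proteins is set by phosphorylation, which RNA does not show.

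Between 6504099 and 14750815 reads per library fell on genes (median 10247620). The members had a median of 23 reads per library for IRF9 and of 226 to 1365 for the other 8. Values are normalized counts on a scale shared by all 32 libraries, and differences are log2 fold changes of the normalized count + 1 with their standard errors (SE), tested with limma and called at an adjusted p of 0.01. ACLY itself was at 103 ± 11.5 in WT (SD, n = 4) and 89.7 ± 17.7 in KO cells, with a log2 fold change of -0.21 ± 0.28 (SE, adjusted p = 0.884). Reads at the 3′ end do not check the edited part of the gene. The study describes the inserts as the ACLY coding sequence in a vector. Whether reads of their transcripts were counted here was not tested, and what share came from the constructs is not known. All 10 monocytic markers on a fixed list had reads in every group. Their summed normalized count ran from 13859 to 16683 in WT libraries, from 15111 to 16115 in SA, from 26553 to 31821 in HA and from 28582 to 45073 in KO libraries. LYZ, the lysozyme gene, was called higher in KO and in HA than in WT cells with and without LPS, and FCER1G and CD14 were also called higher in unstimulated KO cells. After LPS, CD33 was called lower in KO and ITGAM and CD14 lower in HA than in WT cells, and the list median was 0.17 to 0.43 over these 4 comparisons. The part of these differences in the results on the members was not tested. Of 10 markers of T, NK, B and epithelial cells, CD3E and PAX2 had no read in any group and the sum of the list ran from 138 to 417. In bulk RNA, fewer cells expressing a gene and less RNA per cell cannot be told apart. Replicate 1 of LPS-treated SA cells stood apart, with reads on 13460 genes against 17383 to 18552 in the other libraries of its group. Some of the member values it moves are given with and without it, and others only with it.

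LPS raised IRF1 in every line. In WT cells, 1 of the 9 members, IRF1, passed the test, where 31 of 12406 genes (0.250%) did so. In KO cells, the members that passed were IRF1 and IRF2, 2 of 9, against 71 genes (0.572%). In HA cells it was IRF1 alone against 50 genes (0.403%), and in SA cells IRF1 alone against 61 genes (0.492%). The median log2 fold change over the 9 members was 0.37 in WT, 0.10 in KO, 0.07 in HA and 0.73 in SA cells, where the median over all genes tested lay between -0.02 and 0.02. The SA median was 0.44 without the library that stood apart. No member was called lower after LPS.

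**Figure D1:**
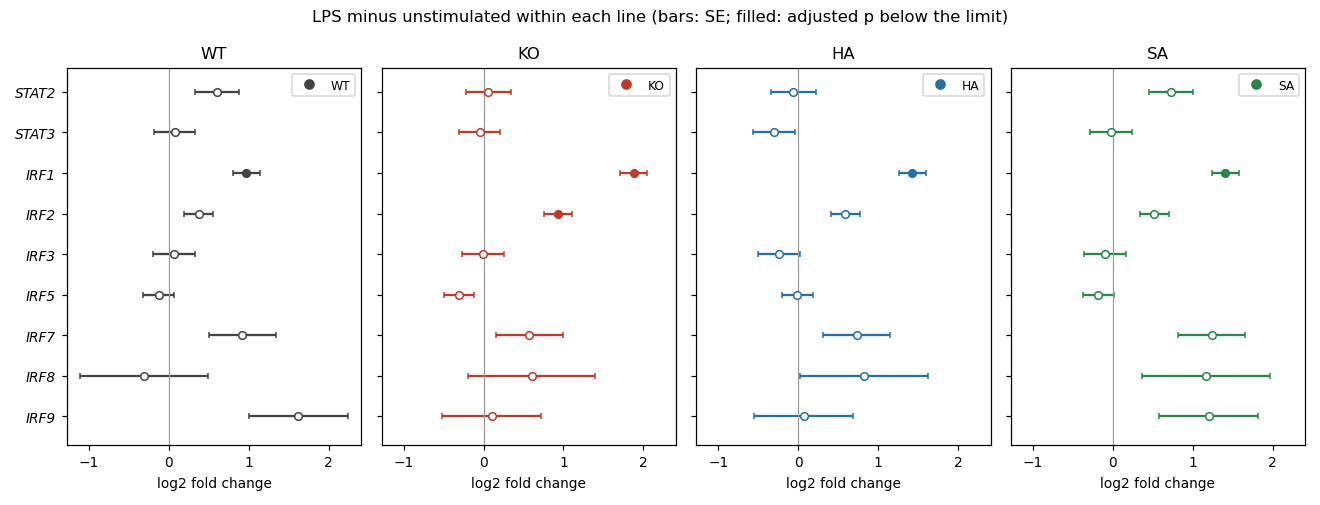
LPS response of the 9 members in each line. The x axis is the log2 fold change of LPS over unstimulated cells, points are estimates over 4 against 4 libraries, bars are SE and filled points passed the adjusted p of 0.01. IRF1 passed in each line, with 0.97 in WT and 1.88 in KO cells, and IRF2 passed in KO cells alone.

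IRF1 (ENSG00000125347, GRCh38 chromosome 5, 132440440 to 132508719, minus strand) is an activator of interferon and antigen presentation genes. Its promoter is shown because IRF1 is the member called in every line after LPS and the window holds 2 motif matches. The bases shown are part of a RefSeq window of 300 bases and lie on GRCh38.p14 at chr5:132490778-132491023, minus strand. They run from position -250 to -5 relative to the RefSeq start of that window, which lies inside the gene span given above. Capitals mark a match to TTCNNNGAA, the GAS element that STAT dimers bind, and a match to the NF-kappaB decamer, both searched on both strands.
IRF1: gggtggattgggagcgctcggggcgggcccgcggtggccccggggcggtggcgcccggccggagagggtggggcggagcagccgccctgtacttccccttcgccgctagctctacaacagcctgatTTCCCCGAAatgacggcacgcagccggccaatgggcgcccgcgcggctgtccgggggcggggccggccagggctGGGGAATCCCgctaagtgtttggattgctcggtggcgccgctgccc
The GAS match lies at chr5:132490889-132490897, positions -124 to -116, and the NF-kappaB match at chr5:132490814-132490823, positions -50 to -41, and the 2 do not overlap. Of 35116 RefSeq promoter windows of 300 bases, 7.66% hold the GAS letters and 7.73% the NF-kappaB decamer. Windows were found for 6 of the 9 members, with none for IRF2, IRF3 and IRF7. No window of a member held the ISRE core GAAANNGAAA, which 3.57% of all windows hold, and the only other match was a GAS element in IRF9.

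In unstimulated cells, the IRF1 normalized count was 466, 520, 546 and 600 in the WT libraries and 871, 849, 1121 and 997 in the KO libraries. It was 1010, 674, 827 and 997 in HA and 588, 570, 541 and 786 in SA libraries. All KO and all HA libraries were above all WT libraries, while SA overlapped both WT and HA. After LPS, the libraries stood at 920, 1064, 1073 and 1132 in WT and at 2927, 4704, 4256 and 2625 in KO. They stood at 2308, 2550, 2450 and 2072 in HA and at 2062, 1582, 1763 and 1260 in SA. The 4 LPS groups did not overlap and their means fell in the order KO (3628 ± 1009), HA (2345 ± 207), SA (1667 ± 336) and WT (1047 ± 90.3; SD, n = 4).

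The IRF1 rise after LPS was 0.97 ± 0.17 in WT (adjusted p = 3.07e-03), 1.88 ± 0.17 in KO (adjusted p = 4.35e-08), 1.43 ± 0.17 in HA (adjusted p = 6.20e-06) and 1.41 ± 0.17 in SA cells (adjusted p = 5.80e-06). LPS libraries were above unstimulated ones in every line without overlap. The calls in KO and HA cells passed under all 19 alternatives. The call in WT cells was lost in 6 of 19, with adjusted p up to 2.74e-02 and a log2 fold change of 0.91 to 1.04, among them the fits without WT replicate 1 or 2 or without LPS-treated WT replicate 2, 3 or 4. The call in SA cells was lost in the 2 fits that held only the SA libraries (adjusted p = 3.35e-02 and 1.43e-01), and held without LPS-treated SA replicate 1 (1.31 ± 0.18, adjusted p = 4.09e-05). The rise was 0.91 ± 0.25 larger in KO than in WT cells, which did not pass the test of the difference (adjusted p = 1.00).

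Between unstimulated lines, IRF1 was higher in KO than in WT cells by 0.84 ± 0.17 (1.8-fold, adjusted p = 2.13e-03). This call was lost in 4 of 19 alternatives, among them the fits without WT replicate 1 (adjusted p = 1.29e-02) and without KO replicate 3 (adjusted p = 1.28e-02). After LPS, IRF1 was higher than in WT cells by 1.75 ± 0.17 in KO (3.37-fold, adjusted p = 5.19e-08) and by 1.16 ± 0.17 in HA cells (2.24-fold, adjusted p = 7.41e-05). It was also higher in KO than in SA cells by 1.10 ± 0.17 (adjusted p = 1.15e-04), or by 1.21 ± 0.18 without LPS-treated SA replicate 1 (adjusted p = 4.77e-05). This call was lost with only the groups compared in the fit (adjusted p = 1.09e-01) and with the replicate block added (adjusted p = 2.96e-01). The excess of 0.65 ± 0.17 in SA over WT cells after LPS did not pass (adjusted p = 0.825), although the libraries did not overlap, and was 0.54 ± 0.18 without that library. The same was true of the 0.59 ± 0.17 by which KO exceeded HA cells after LPS (adjusted p = 0.182).

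Between the lines, every member called was higher in KO or HA cells. In unstimulated KO against WT cells, 3 of 9 members were called, STAT2, IRF1 and IRF7, where 360 genes (2.90%) were called. After LPS the 2 called were IRF1 and IRF2, against 430 genes (3.47%). In HA against WT cells, STAT2 was called without LPS, 1 of 9 against 313 genes (2.52%), and IRF1 and IRF2 after LPS, 2 of 9 against 250 genes (2.02%). In KO against SA cells, STAT2 and IRF7 were called without LPS, where 355 genes (2.86%) were called, and IRF1 after LPS, where 363 genes (2.93%) were called. The comparisons with WT share the WT libraries, and those of KO share the KO libraries.

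No member was called in the other line comparisons. In SA against WT cells, limma called 0 of 12406 genes (0%) with or without LPS, and voom on the recovered reads also called 0. At an unadjusted p below 0.05, SA against WT gave 2 and 2 of the 9 members, against 445 and 646 of the 12406 genes. The median log2 fold change over the members was 0.21 without and 0.51 with LPS. Leaving out LPS-treated SA replicate 1, the median with LPS was 0.44. With library weights, limma called 4 genes without and 12 with LPS, none of them a member. With DESeq2, the study reported CXCL11, IFI44, GBP1, EPSTI1 and IFIT2 as higher in SA than in WT cells after LPS. Of these, IFIT2 and GBP1 are on the target lists below. In KO against HA cells, 28 genes (0.226%) and 1 gene (0.00806%) were called without and with LPS, and in HA against SA cells 186 (1.50%) and 251 genes (2.02%). At an unadjusted p below 0.05, KO against HA gave 1 and 3 members, against 1288 and 1307 of the 12406 genes. HA against SA gave 2 and 1 members, against 2029 and 2430 genes. The LPS responses of KO, HA and SA cells differed from that of WT cells in 1 (0.00806%), 0 (0%) and 0 (0%) genes, none of them a member, with 175, 142 and 457 genes and 2, 0 and 0 members at an unadjusted p below 0.05. Voom called 1, 0 and 0 genes there.

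**Figure D2:**
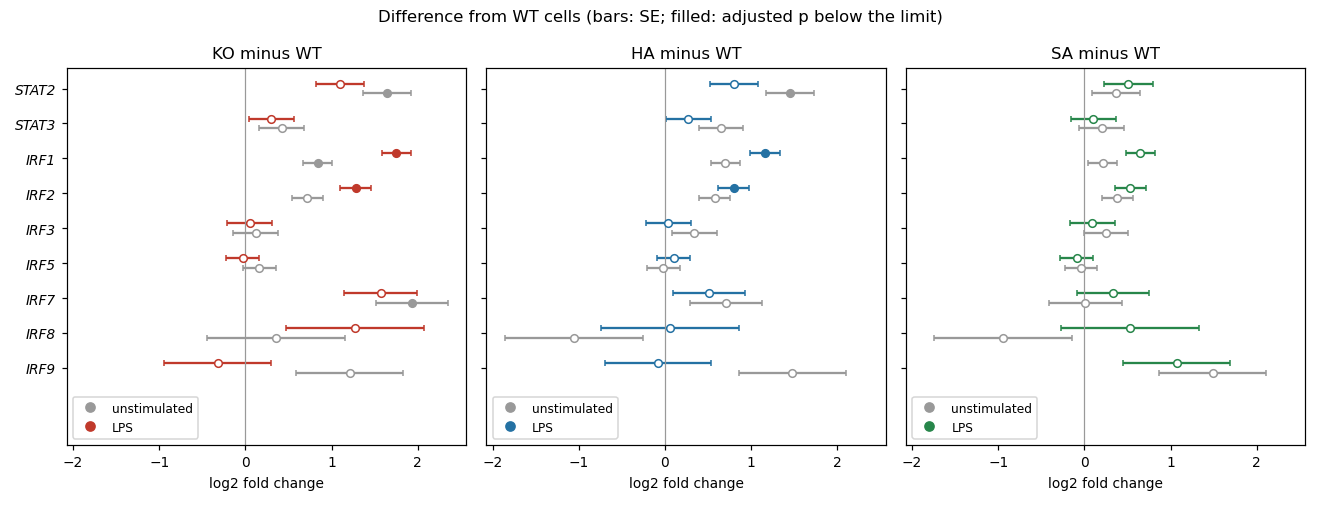
Difference of KO, HA and SA cells from WT cells. The x axis is the log2 fold change over WT, grey points are unstimulated cells, colored points LPS-treated cells, bars are SE over 4 against 4 libraries, and filled points passed the adjusted p of 0.01. STAT2, IRF1 and IRF7 passed in unstimulated KO cells, STAT2 in unstimulated HA cells, IRF1 and IRF2 after LPS in both, and no member in SA cells.

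IRF2 (ENSG00000168310, chromosome 4, 184385702 to 184474558, minus strand) was likewise highest in LPS-treated KO cells, with smaller differences between lines. Its normalized count in unstimulated libraries was 131, 105, 174 and 139 in WT, 217, 256, 196 and 226 in KO, 277, 177, 193 and 176 in HA and 191, 194, 151 and 170 in SA. After LPS it was 185, 182, 140 and 196 in WT, 579, 417, 386 and 348 in KO, 339, 330, 293 and 260 in HA and 304, 285, 233 and 203 in SA. LPS-treated KO libraries lay above those of every other group. LPS-treated SA libraries all lay above LPS-treated WT libraries, by 0.53 ± 0.18, which did not pass (adjusted p = 0.825). That excess was 0.44 ± 0.19 without LPS-treated SA replicate 1. The LPS rise passed in KO cells (0.93 ± 0.18, 1.9-fold, adjusted p = 4.49e-03), where the libraries paired by replicate number gave an adjusted p of 1.36e-02 and 11 of 19 alternatives called it. It was lost without KO replicate 1, 3 or 4 or LPS-treated KO replicate 1 or 2 (adjusted p of 1.65e-02 to 4.51e-02). After LPS, IRF2 was higher than in WT cells by 1.28 ± 0.18 in KO (2.42-fold, adjusted p = 1.84e-05), a call that held under all 19 alternatives. In HA cells the excess was 0.80 ± 0.18 (adjusted p = 8.41e-03), called in 8 of 19 alternatives and lost when any of 7 libraries of these groups was left out, the exception being LPS-treated HA replicate 4.

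STAT2 (ENSG00000170581, chromosome 12, 56341597 to 56360203, minus strand) separated the lines before LPS was added. In unstimulated libraries its normalized count was 103, 125, 183 and 113 in WT and 443, 364, 491 and 323 in KO. It was 550, 380, 242 and 301 in HA and 169, 164, 137 and 199 in SA. The KO and HA libraries all stood above the highest WT and SA library. The KO excess over WT was 1.64 ± 0.28 (3.12-fold, adjusted p = 2.38e-04) and passed under all 19 alternatives. The HA excess over WT was 1.45 ± 0.28 (2.74-fold, adjusted p = 1.38e-03), and was lost without HA replicate 1 (1.24, adjusted p = 1.21e-02). It was also lost with only the groups compared (adjusted p = 1.09e-02) and with the replicate block added (adjusted p = 5.44e-02). The HA excess over SA was 1.08 ± 0.28 and did not pass (adjusted p = 2.55e-02), with 2 of 19 alternatives calling it. The KO excess over SA was 1.27 ± 0.28 (adjusted p = 4.57e-03) and was called in 10 of 19 alternatives. It was lost without KO replicate 1, 2 or 3 or SA replicate 1, 2 or 3 (adjusted p of 1.03e-02 to 2.00e-02). On the deposited scale it was 0.91 (adjusted p = 2.19e-02).

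After LPS, STAT2 stood at 179, 202, 231 and 167 in WT, 440, 372, 554 and 331 in KO, 473, 258, 344 and 309 in HA and 579, 203, 253 and 196 in SA libraries. The change within a line was 0.60 ± 0.28 in WT, 0.06 ± 0.28 in KO, -0.06 ± 0.28 in HA and 0.73 ± 0.28 in SA cells, and none passed. Without the SA library that stood apart, the value in SA cells was 0.38 ± 0.24. The excess of LPS-treated KO over WT cells was 1.10 ± 0.28 (adjusted p = 1.27e-02). It passed when libraries were paired by replicate number (adjusted p = 6.09e-05), and the KO library was 1.84 to 2.46 times its WT counterpart in each of 4 pairs.

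IRF9 (ENSG00000213928, chromosome 14, 24161234 to 24168043, plus strand), the DNA-binding partner of STAT2, had few reads. Its last exon shares 331 bases with a protein-coding locus on the same strand, ENSG00000259529, which the tables list with 748 reads in all libraries against 1084 for IRF9. Reads that fall on both loci could have been left uncounted. The normalized count was 2.90 to 16.9 in unstimulated WT libraries and 13.7 to 65.4 after LPS. The means were 30.8 ± 31.3 and 28.4 ± 21.7 in KO, 27.4 ± 7.30 and 29.2 ± 9.95 in HA, and 29.7 ± 17.6 and 80.2 ± 69.6 in SA cells without and with LPS (SD, n = 4). In SA cells after LPS, the library that stood apart was at 182 and the others at 34.7 to 68.3, and the excess over LPS-treated WT cells was 1.07 ± 0.62 with it and 0.56 ± 0.63 without it. Unstimulated HA and SA libraries lay above all WT libraries, by 1.48 ± 0.62 and 1.49 ± 0.62, and no IRF9 difference passed (lowest log2 fold change -1.38, highest 1.62 over 16 comparisons). The GAS match in its promoter is given for comparison with that of IRF1, with the match in capitals, on GRCh38.p14 at chr14:24161196-24161216 on the plus strand.
IRF9: cgtgatTTCTGGGAAaaggcc
The match spans chr14:24161202-24161210, positions -63 to -55 relative to the RefSeq start of its window, which lies inside the gene span given above.

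IRF7 (ENSG00000185507, chromosome 11, 612553 to 615983, minus strand), which amplifies interferon production and is itself an interferon-stimulated gene, was highest in KO cells. In unstimulated libraries its normalized count was 183, 177, 73.8 and 193 in WT and 867, 922, 197 and 622 in KO. It was 230, 202, 232 and 306 in HA and 85.7, 140, 236 and 166 in SA. Every KO library was above every WT library, by a narrow margin for KO replicate 3. After LPS it was 302, 321, 178 and 347 in WT, 1104, 1145, 473 and 797 in KO, 366, 442, 290 and 527 in HA and 169, 456, 516 and 376 in SA. Unstimulated KO cells exceeded WT by 1.93 ± 0.42 (3.8-fold, adjusted p = 3.30e-03) and SA by 1.92 ± 0.42 (adjusted p = 3.92e-03). The KO and SA libraries overlapped, with KO replicate 3 at 197 below SA replicate 3 at 236. The call against WT was lost without WT replicate 3 or KO replicate 1, 2 or 4 (adjusted p of 1.25e-02 to 2.63e-02). It was also lost with only the groups compared (adjusted p = 7.71e-02). The call against SA was lost without KO replicate 1, 2 or 4 or SA replicate 1 or 2 (adjusted p of 1.35e-02 to 2.61e-02). With only the groups compared it was lost too (adjusted p = 6.75e-02), as with the replicate block added (adjusted p = 2.69e-01).

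Replicate 3 of both WT and KO cells was low in IRF7, and same-numbered libraries of the WT and KO groups deviated from their group means together. Taken number by number, IRF7 in KO was 4.74, 5.22, 2.67 and 3.23 times that in WT without LPS and 3.66, 3.57, 2.65 and 2.29 times after LPS. The LPS-treated library exceeded its unstimulated counterpart in all 4 pairs of WT (1.65 to 2.42 times) and of KO cells (1.24 to 2.39 times). With the pairing in the fit, the LPS rise of IRF7 in WT cells passed (0.92, adjusted p = 6.93e-05, against 1.00 without pairing), and so did the excess of LPS-treated KO over WT cells (1.57, adjusted p = 3.25e-06, against 1.79e-02). Without the 4 replicate 3 libraries, the KO excess over WT was 2.10 without LPS (adjusted p = 2.25e-04) and 1.63 after LPS (adjusted p = 2.67e-03), and the excess of unstimulated KO over HA cells reached 1.72 (adjusted p = 4.16e-03, against 1.22 and 0.286 with all libraries).

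**Figure D3:**
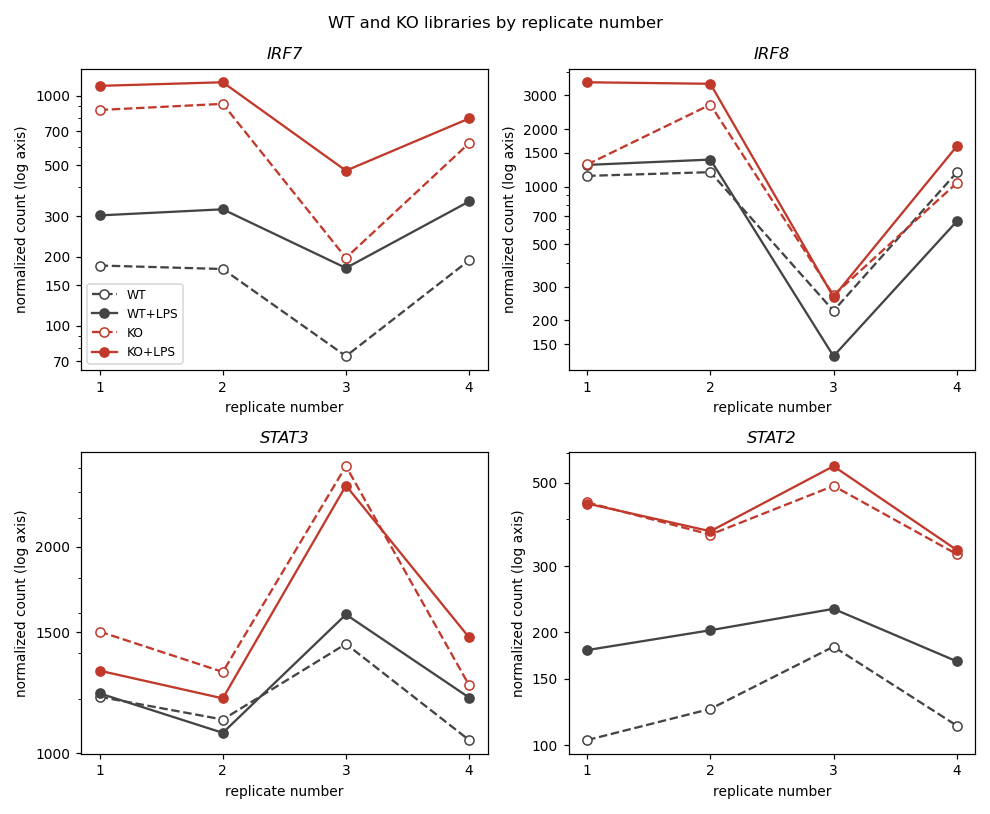
Normalized counts of IRF7, IRF8, STAT3 and STAT2 in the WT and KO libraries, by replicate number, on a log axis. Each point is a library, and lines join the libraries of a group for the eye and carry no order. Replicate 3 was the lowest of its group in IRF7 and IRF8 and the highest in STAT3 and STAT2 in all 4 groups, while IRF7 in KO stayed above WT at every number.

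IRF8 (ENSG00000140968, chromosome 16, 85899116 to 85922606, plus strand) spread widely among the libraries of a group. In unstimulated libraries its normalized count was 1138, 1190, 224 and 1186 in WT, 1306, 2687, 270 and 1043 in KO, 459, 221, 397 and 467 in HA and 339, 309, 1205 and 201 in SA. After LPS it was 1299, 1385, 130 and 657 in WT, 3517, 3453, 264 and 1623 in KO, 591, 612, 424 and 1183 in HA and 332, 1250, 1035 and 1543 in SA. Replicate 3 was the lowest library of each WT and KO group but the highest of unstimulated SA cells. No IRF8 comparison passed, with SE of 0.80. The excess of LPS-treated KO over WT cells was 1.27 ± 0.80 (adjusted p = 0.476). The KO library was 2.71, 2.49, 2.04 and 2.47 times its same-numbered WT library, and the paired fit called this excess (adjusted p = 2.09e-06). Without the 4 replicate 3 libraries it was 1.35 (adjusted p = 0.204) in the unpaired fit. In that unpaired fit, HA minus WT was -1.66 ± 0.52 without LPS (adjusted p = 3.35e-02) and -0.70 ± 0.52 with LPS (adjusted p = 0.435). KO minus HA was 2.05 ± 0.52 without and with LPS (adjusted p = 3.53e-02 and 3.51e-02). No IRF8 difference passed there.

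STAT3 (ENSG00000168610, chromosome 17, 42313324 to 42388540, minus strand) passed in no comparison. Its group means ran from 1204 ± 173 in unstimulated WT to 1888 ± 287 in unstimulated HA cells (SD, n = 4). Over the 16 comparisons of 2 groups, its log2 fold change lay between -0.30 and 0.65. The highest was unstimulated HA over WT, 0.65 ± 0.26 (adjusted p = 0.122), in which the libraries did not overlap, and library weights called it (0.74, adjusted p = 8.36e-04). The KO library was above its same-numbered WT library in all 4 pairs without LPS (1.17 to 1.82 times) and in all 4 with LPS (1.08 to 1.54 times), and no fit called either difference. In KO cells, replicate 3 stood at 2619 without and 2454 with LPS, above the 1201 to 1503 of the other KO libraries, and the LPS-treated SA library that stood apart was at 2575 against 964 to 1252 in the rest of its group.

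IRF3 and IRF5, which are present before stimulation and act through phosphorylation, also passed in no comparison. IRF3 (ENSG00000126456, chromosome 19, 49659569 to 49665875, minus strand) had group means of 282 ± 64.7 in unstimulated WT to 359.5 ± 93.2 in unstimulated HA cells, with log2 fold changes of -0.24 to 0.34 and 95% intervals reaching from -0.79 to 0.89. Its highest library, at 574, was again LPS-treated SA replicate 1. IRF5 (ENSG00000128604, chromosome 7, 128937457 to 128950038, plus strand) had group means of 426 in LPS-treated SA (libraries at 291 to 505) to 559 in unstimulated KO cells (363 to 756), with log2 fold changes of -0.31 to 0.19 and intervals from -0.70 to 0.58. Each interval gives the differences compatible with its comparison, so a difference that was not called may still exist. IRF5 was lower in the LPS-treated than in the unstimulated library in all 4 WT pairs, at 0.839 to 0.979 times.

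**Figure D4:**
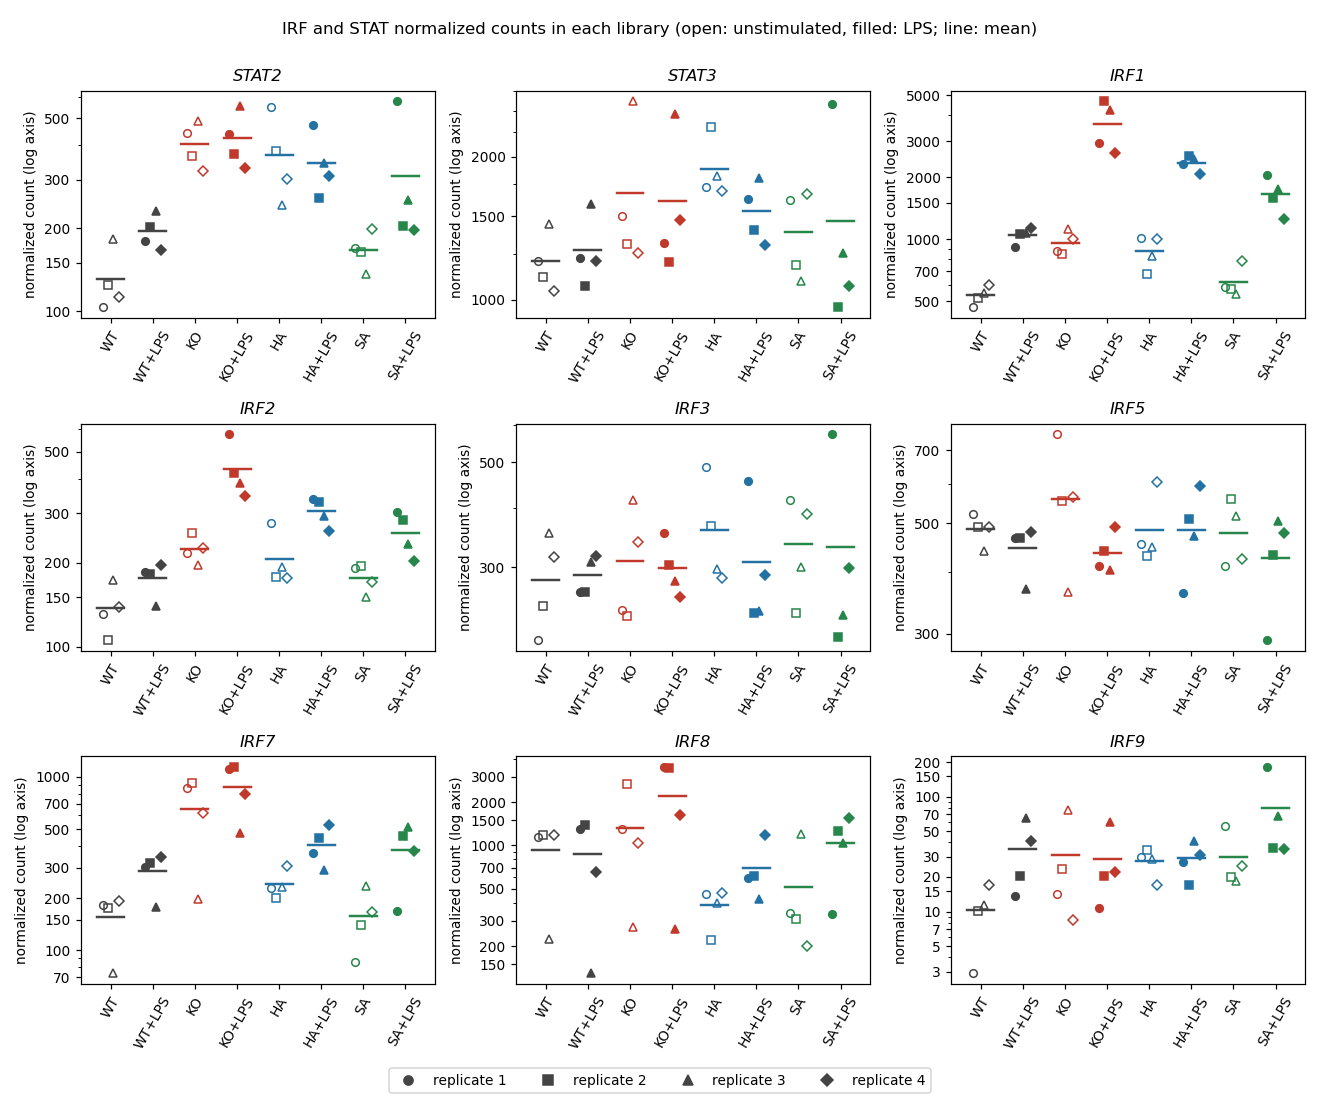
Normalized count of each member in each of the 32 libraries, on a log axis with a range of its own in each panel. Open symbols are unstimulated and filled symbols LPS-treated cells, the symbol gives the replicate number and the line the group mean. IRF1 rises with LPS in each line with no overlap, and IRF8 spreads from 130 to 1385 within LPS-treated WT cells. STAT2 is higher in KO and HA than in WT and SA cells before LPS, though HA over SA did not pass the test.

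Ordered by group mean, neighbouring groups overlapped for STAT2, STAT3, IRF3, IRF5, IRF7 and IRF8 at every step. IRF1 was the exception among the 4 LPS groups, IRF2 between LPS-treated KO and HA cells, and IRF9 between unstimulated WT cells and the group next above them. STAT2 ran from KO with LPS (424) to unstimulated WT (131), IRF7 from KO with LPS (880) to unstimulated WT (157), and IRF8 from KO with LPS (2215) to unstimulated HA cells (386).

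Neither of the 2 tested genes on the list of other IRF family genes was called in any comparison. The lists named here were drawn up from general knowledge, with earlier results of these data known.

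Genes that ISGF3 is known to induce, 13 in all, were all called higher in KO than in WT cells, both unstimulated (median log2 fold change 2.68, against -0.03 over all genes) and after LPS (2.12, against -0.01). In unstimulated KO cells, the called values ran from 1.85 ± 0.30 for OAS3 to 3.45 ± 0.32 for IFIT1, and after LPS from 1.57 ± 0.30 for OAS3 to 3.23 ± 0.31 for IFIT2. OAS enzymes sense double-stranded RNA and IFIT proteins bind foreign RNA. In HA cells, 10 of 13 were called higher than in WT cells without LPS, from 0.98 ± 0.18 for OAS1 to 2.21 ± 0.29 for MX1, and 8 of 13 after LPS, from 0.94 ± 0.18 for OAS1 to 2.04 ± 0.31 for IFIT2. In SA against WT cells 0 of 13 were called, with medians of 0.33 and 0.55. KO was called higher than HA cells in 4 of 13 genes without LPS and in IFI44L alone after LPS, with list medians of 1.12 and 0.94. The LPS response was called in IFIT1, IFIT2 and IFIT3 in each line and also in OAS1 and ISG15 in SA cells, with IFIT2 rising by 3.40 ± 0.31 in WT and by 4.33 ± 0.31 in SA cells.

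Of the 14 tested genes on the list of IRF1 and GAS targets, 7 were higher in unstimulated KO than in WT cells and 8 after LPS, with list medians of 1.04 and 1.47. The largest value was 4.16 ± 0.30 for GBP1, a guanylate-binding protein, without LPS and 4.16 ± 0.69 for CXCL9, a chemokine, after LPS, and the smallest was that of the immunoproteasome subunit PSMB9, 1.02 ± 0.20 and 1.13 ± 0.20. In HA cells GBP1, GBP2 and CIITA were called, 3 of 14 with and without LPS, and in SA cells none, with list medians of 0.43 and 0.67 in HA and of 0.01 and 0.12 in SA cells without and with LPS. CIITA, the activator of MHC class II genes, differed most, by 2.72 ± 0.43 and 3.14 ± 0.43, and GBP2 least, by 0.89 ± 0.17 and 1.02 ± 0.17. CXCL9 and GBP5 were called after LPS in each line, 2 of 14 genes in WT, 4 in KO, 3 in HA and 5 in SA cells. CXCL9 reached 38.0 ± 7.93 after LPS in WT and 805 ± 487.5 in KO cells (SD, n = 4). It was listed at 0 in all unstimulated SA libraries and at 96.0 ± 40.5 after LPS.

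**Figure D5:**
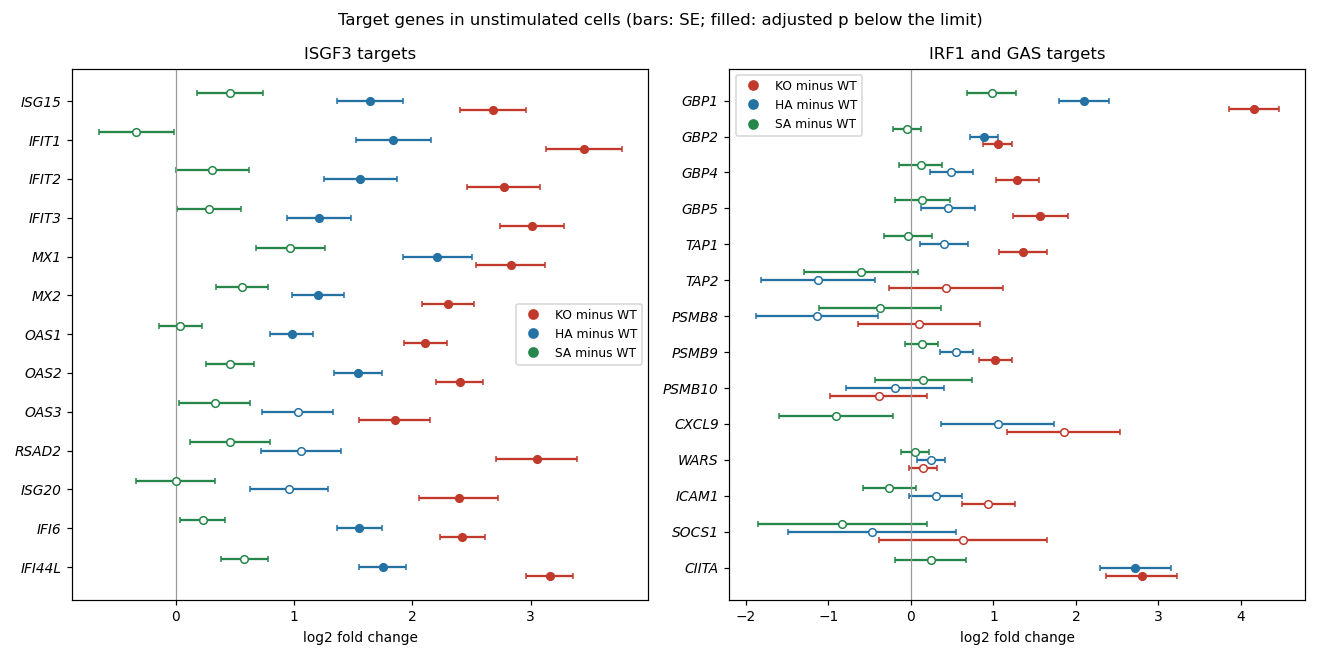
Log2 fold change over WT cells of the genes known as targets of ISGF3 (left) and of IRF1 and GAS elements (right) in unstimulated KO, HA and SA cells, on the x axis. Bars are SE over 4 against 4 libraries and filled points passed the adjusted p of 0.01. On the left, 13 of 13 genes passed in KO, 10 in HA and 0 in SA cells.

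Upstream of the members, of 10 interferon and cytokine genes, only IFNL1, a type III interferon, passed the filter, and it did so through LPS-treated KO cells, so its levels are given without a test. It had no read in unstimulated WT libraries and a normalized count of 5.48 to 25.8 in KO libraries, and after LPS 0 to 5.28 in WT and 38.9 to 137.5 in KO libraries. IFNB1 was below the filter and ran from 0 to 84.4 in LPS-treated KO libraries, with no library of another group above 2.24. IFNLR1, a subunit of the type III interferon receptor, had no read in any group and was not tested. Of 11 tested receptor and Janus kinase genes, IL10RA, a receptor subunit that signals through STAT3, and JAK2 were higher in KO than in WT cells, IL10RA by 1.37 ± 0.19 and JAK2 by 0.85 ± 0.17 without LPS. IL10RA rose with LPS in each line and was the only one of the 11 called in HA against WT cells, by 1.35 ± 0.19 and 1.36 ± 0.19.

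Of 14 tested activators upstream of the IRF proteins, RIG-I (listed as DDX58), a sensor of viral RNA, rose with LPS in each line, by 1.34 ± 0.25 in KO to 1.71 ± 0.25 in SA cells. It was also higher in KO than in WT cells, by 2.09 ± 0.25 without and by 1.88 ± 0.25 with LPS. After LPS, CD14, the LPS co-receptor, had log2 fold changes of -2.07 ± 0.26 in KO, -1.72 ± 0.26 in HA and -1.43 ± 0.26 in SA cells, all called. It was higher in unstimulated KO than in WT cells by 1.66 ± 0.26 and lower in LPS-treated HA than in WT cells, at -1.37 ± 0.26. Among 10 negative regulators, USP18, which restrains the interferon receptor, was the only call, in unstimulated KO against WT cells (2.79 ± 0.59). Of 9 transcription partners, CIITA and BATF2 were higher and BATF3 lower in KO than in WT cells with and without LPS. Of 11 STAT3 targets, BCL3 and BCL6 were higher in LPS-treated KO than in WT cells, by 0.66 ± 0.16 and 2.27 ± 0.36, and BCL3 rose with LPS in KO and HA cells by 1.30 ± 0.16 and 0.94 ± 0.16.

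For the 6 members whose group means spanned more than 1 log2 unit, the genes with the most similar pattern over the 8 groups were looked up, by the root mean square difference of their centred log2 group means. STAT2 was closest to AGRN, PARP10 and XAF1 (0.11, 0.12 and 0.15), IRF7 to OAS1 and CMPK2 (0.14 and 0.19) and IRF2 to CGAS, CASP10 and VILL (0.12, 0.13 and 0.13). IRF1 was closest to CLUHP3, PMAIP1 and IER3 (0.16, 0.23 and 0.23) and IRF8 to SDCBP, CALHM6 and DRAP1 (0.17, 0.20 and 0.20). IRF9 had no close match, with AL021707.6 at 0.33 and REC8 and ENSG00000260336 at 0.38 each. These are descriptions over 8 group means that share libraries and a scale.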

How the data were processed

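RNA was measured by 3′ mRNA sequencing (QuantSeq) in 32 libraries, 4 for each of 8 groups taken from the labels. Reads had been trimmed with Bbduk, aligned to GRCh38 with STAR and counted per gene with HTSeq-count. Tool versions and the annotation release are not given in the sources used here. The authors deposited normalized counts, made with DESeq2 separately for each line and written with decimal commas. Every deposited value gave a whole number of reads within 0.05, so reads were recovered and scaled to all 32 libraries by median-of-ratios size factors. Relative to this joint scale, the deposited log2 values of KO, HA and SA lay -0.10, 0.15 and 0.26 from those of WT. The 92 spike-in rows, with 1 read in all, were left out.

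Values of log2(normalized count + 1) for the 12406 genes with a mean deposited count of at least 10 were fitted with limma 3.58.1 in R 4.3.3, with 8 group means, 24 residual degrees of freedom and Benjamini-Hochberg adjustment over all these genes. The pseudocount understates changes of low genes. The 95% intervals are those of the fit and cover only the spread between libraries. Count models were not run, and limma-voom on the recovered reads was used as an alternative. The code was tested on simulated data. Replicate numbers were taken as pairs among the WT and KO groups, where all 6 pairs of groups had deviations from the group means correlated above 0.1 for every number (lowest 0.124), and not for HA or SA, where at least 1 number was lower. The members and lists were chosen with earlier results of these data known. All members are named, with the list genes of largest and smallest called change, ACLY, and the 3 nearest genes by pattern. Further list genes were named after their values were seen, and 1 gene that the rule names is not reported here.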

Additional observations from a re-analysis of the deposited data

Results flagged for a closer look

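In each group of 4 libraries, the highest or lowest library was compared with the gap it leaves to the nearest of the others. Of 72 sets of a member and a group, 7 held a library that stood apart by Dixon's criterion, and chance flags about 1 in 20 groups. STAT2 was at 578.8 in replicate 1 of LPS-treated SA cells, against 196 to 253.2 in the others. IRF2 was at 277.4 in replicate 1 of unstimulated HA cells, against 176.2 to 192.6. IRF5 was at 369.8 in replicate 3 of LPS-treated WT cells, against 467.4 to 480.6, and at 603.6 in replicate 4 of unstimulated HA cells, against 429.2 to 454.7. Replicate 3 of unstimulated WT cells held both IRF7 at 73.83, against 176.6 to 192.6, and IRF8 at 223.8, against 1138.1 to 1190.4. IRF8 was at 1205.4 in replicate 3 of unstimulated SA cells, against 200.9 to 339.4.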

How the results depend on the processing

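Counts of members called were compared under 11 other settings and with each library left out. The settings without the WT and KO replicate 3 libraries and with voom were chosen after seeing the data, and the planned edgeR and DESeq2 fits were not run. With libraries left out, counts ran from 0 to 1 for LPS in WT (1 in the full fit), 1 to 2 in KO (2), 2 to 3 for unstimulated KO against WT (3) and 2 to 3 after LPS (2). They ran from 0 to 2 for unstimulated HA against WT (1), 1 to 2 after LPS (2), 0 to 2 for unstimulated KO against SA (2) and 1 to 2 after LPS (1). The numbers of all genes called in these fits are not given here. These ranges therefore do not show whether the members moved more than genes in general.

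With the replicate block and only the groups compared, the count was 2 for LPS in WT, 1 in KO and 0 in SA, 5 for LPS-treated KO against WT, 0 for HA against WT and KO against SA with or without LPS, and 1 for unstimulated HA against SA. Over all genes, this fit called 126, 116 and 3 for LPS in WT, KO and SA and 1333 for LPS-treated KO against WT. It called 8 and 7 genes for HA against WT without and with LPS. For KO against SA it called 0 genes with or without LPS, and for unstimulated HA against SA 231. With the block and all groups the member count was 4 for LPS-treated KO against WT, where 554 genes were called. It was 2 for LPS-treated KO against SA, where 443 were called. Each pair of groups with HA or SA had at least 1 number with a correlation below 0.1, so these numbers were not taken as pairs.

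With only the groups compared and no block, the count was 1 for LPS in KO, 0 in SA, 1 for unstimulated KO against WT, 0 and 1 for HA against WT without and with LPS, and 1 and 0 for KO against SA. Over all genes, this fit called 21 and 7 for LPS in KO and SA and 179 for unstimulated KO against WT. It called 196 and 133 genes for HA against WT and 138 and 18 for KO against SA, without and with LPS. Library weights gave 2 for LPS in SA, 4 for LPS-treated KO against WT, 4 for unstimulated HA against WT, 1 for unstimulated KO against HA, 4 for LPS-treated KO against SA, and 1 for HA against SA with or without LPS. Over all genes, they called 181 for LPS in SA, 1112 for LPS-treated KO against WT and 2632 for unstimulated HA against WT. They called 134 for unstimulated KO against HA and 904 for LPS-treated KO against SA. For HA against SA they called 474 without and 1247 with LPS. Without the WT and KO replicate 3 libraries the member count was 0 for LPS in WT, 1 in KO, 1 for LPS-treated HA against WT, 1 for unstimulated KO against HA, and 1 and 2 for KO against SA. All genes called there numbered 20 for LPS in WT, 53 in KO and 248 for LPS-treated HA against WT. They numbered 37 for unstimulated KO against HA, and 354 and 369 for KO against SA without and with LPS. On the deposited scale the member count was 2 for unstimulated HA against WT (503 genes called) and 1 for unstimulated KO against SA (1134). No filter gave 1 for LPS-treated HA against WT (200 genes called). A minimum of 50, TMM and voom each gave 2 for LPS-treated KO against SA, where 340, 372 and 369 genes were called. Smaller changes were 4 for unstimulated KO against WT with library weights (1074 genes called) or the block with all groups (430). LPS-treated HA against WT gave 3 with library weights (1163 genes called). LPS-treated KO against WT gave 3 with TMM (439 genes called), with only the groups compared (300) and without the replicate 3 libraries (345). The cause of these changes was not tested.

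No member value called in any fit changed sign. Of 139 values never called, 162 of 2838 alternative values had the other sign. IRF9, with a median of 23 reads, is limited most by depth.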
